A study of Mus musculus with 14 samples.

Results

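Whole-cerebellum RNA of Astn2 knockout (KO) mice was compared with that of wild-type (WT) mice in the input libraries of a ribosome-tagging study. The 7 libraries labelled as input were used, of 14 libraries in all: 3 from Astn2 KO and 4 from Astn2 WT cerebella. Every animal was at postnatal day 21 and carried the Tg(Pcp2-L10a-EGFP) transgene, which tags ribosomes in Purkinje cells, and both genotypes were littermates per the design text. KO libraries 1 and 2 and WT library 1 were labelled female, and KO library 3 and WT libraries 2, 3 and 4 male. The labels' protocol describes the input as a small share of the cerebellar homogenate's supernatant after a low-speed spin, set aside before the tagged ribosomes were captured. It is therefore RNA of all cerebellar cell types, with the material that such a spin pellets, mostly nuclei, left behind. The labels do not state that each library is a separate animal, how the KO allele was made, or on which strain background the mice were kept.

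Astn2 encodes a transmembrane protein of the astrotactin family. Its relative Astn1 is known for the adhesion of migrating granule cells to Bergmann glia, and ASTN2 is known to act in the trafficking of surface proteins, including synaptic proteins of Purkinje cells. Deletions in the human gene have been found in people with neurodevelopmental disorders. The cerebellar cortex is built mostly of granule cells, which send parallel fibres to Purkinje cells, its only output neurons, with molecular layer interneurons, Golgi cells, unipolar brush cells, Bergmann glia, oligodendrocytes and vessels around them.

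The KO libraries held 36.4 to 54.2 M counts (M, 1e6) and the WT libraries 25.1 to 39.1 M, so that 3 counts in a library correspond to 0.0553 to 0.120 counts per 1e6 counts (CPM). The labelled sex matched the Y-linked gene Ddx3y in 7 of 7 libraries. Marker panels of granule cells, Purkinje cells and oligodendrocytes each summed to 6917 CPM or more in every library, so the labelled tissue's main cell types were present. In such bulk RNA, fewer cells of a type and less RNA per cell cannot be told apart. Since the labels do not say that replicates came from separate animals, a p-value here measures the spread between these libraries, which may be partly technical.

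Few genes separated the genotypes beyond the spread between libraries. Of 15997 genes tested, 3 passed an adjusted p of 0.05 by edgeR's quasi-likelihood test with sex as a covariate, a share of 0.0188%: Astn2 and the antisense RNA Zfhx2os fell, and Trim32, which encodes a TRIM family ubiquitin ligase, rose. At an adjusted p under 0.1 there were 15 genes, 3 of them higher in KO and 12 lower. The standard error of a log2 fold change (KO minus WT throughout) had a median of 0.10, and the median over all genes was -0.01. Large differences were rare among well-measured genes: 135 genes differed by at least 1 log2 unit, and 14 of these had a mean level of at least 10 CPM.

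Below that threshold, more genes had an unadjusted p under 0.05 in this fit than the 5% that the test gives when there is no difference. A gene is said here to lean when its unadjusted p in the same test is under 0.05, which is not a call of change for any single gene. By this measure 998 genes leaned higher in KO (6.24%) and 1200 lower (7.5%), 2198 in all, where 5% of the genes tested would be 799.9 in both directions together. This excess was not present in every fit. With all 14 libraries in 1 fit, 171 genes leaned higher and 238 lower, of 16042 tested. Genes also varied together by transcript length, as given below, so they are not independent and the 5% is a rough guide only. The median absolute log2 fold change of leaning genes was 0.26. Another, cruder measure was whether all KO libraries lay on one side of all WT libraries: 908 genes lay wholly above (5.68%) and 788 wholly below (4.93%). Both measures held for 466 higher and 561 lower genes.

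**Figure D1:**
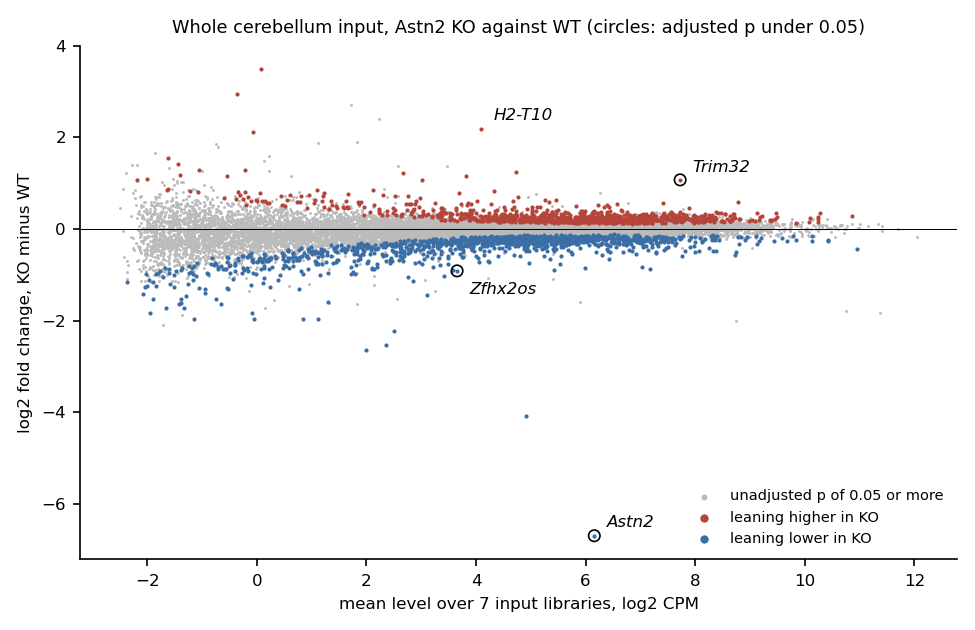
Each point is 1 of the 15997 genes tested, with its mean level in log2 CPM on the x axis and its log2 fold change, KO minus WT, on the y axis, colours for genes that lean and circles for those past the adjusted threshold. Astn2 lies far below all other well-measured genes, and most leaning genes lie within 1 log2 unit of 0.

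The 3 KO libraries did not share the leaning pattern equally. KO library 3 was the KO library farthest from the WT mean in 72.1% of the 998 higher genes and 77.6% of the 1200 lower genes, against 38.2% of the genes that did not lean. KO library 2 was the nearest to the WT mean in 70.7% of the higher and 65.9% of the lower genes, against 35.9% of the others. Without KO library 2, 158 genes passed an adjusted p of 0.05, 54 higher and 104 lower, and 156 of them leaned with all libraries. Without KO library 3 only Astn2 passed and 457 genes leaned higher and 489 lower. Sex and library are linked here, since KO library 3 is the only male KO and WT library 1 the only female WT. In the fit on female contrasts alone (without KO library 3) and that on male contrasts alone (without WT library 1), 15885 genes were tested in both. The female contrast sets 2 KO libraries against 1 WT library and the male one 1 KO library against 3, so each has a lone library that is assumed to vary like the others. Of the genes leaning lower in females 35.2% also leaned lower in males, where 9.10% of all genes did; of those leaning higher in females 16.5% also leaned higher in males, where 6.75% did.

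The targeted gene was measured first. Astn2 (chr4:65380803-66404537 on the minus strand, RefSeq, GRCm38.p6) had 0.965, 1.25 and 1.20 CPM in KO libraries 1, 2 and 3, and 114, 125, 119 and 138 CPM in WT libraries 1, 2, 3 and 4. Every KO library was at about the level of a rare transcript and far from every WT library, with 35 to 64 counts left in KO. Astn2 fell by 6.70 on the log2 scale (SE 0.11, adjusted p = 1.46e-08, edgeR's quasi-likelihood test). 

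Trim32 lies inside the span of Astn2, at chr4:65604986-65616240 on the opposite strand, and 0 of its 3229 annotated exon bases (GENCODE M21) fall in an exon of Astn2. It had 311, 265 and 307 CPM in the KO libraries and 124, 139.7, 161 and 173 CPM in the WT libraries, a mean of 294 ± 25.2 (SD, n = 3) against 149 ± 21.6 (SD, n = 4). All KO libraries lay above all WT libraries, and the ratio of the means was 1.97. Its log2 fold change was 1.07 ± 0.10 (SE, adjusted p = 0.0296, edgeR's quasi-likelihood test). The call was lost without KO library 3 (adjusted p = 0.397), WT library 1 (0.0739), WT library 2 (0.0993) or WT library 3 (0.0977), while the log2 fold change of Trim32 stayed between 0.97 and 1.21 in all alternatives run. Whether the counting used strand is not given in the sources used here, so reads of an antisense transcript of the Astn2 locus cannot be told apart from Trim32 reads.

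The protein-coding genes on either side of Astn2 and Trim32 did not lean. Pappa, which encodes a secreted metalloproteinase, had a log2 fold change of -0.54 ± 0.35 (SE), and Tlr4, a receptor of innate immunity, 0.29 ± 0.32. Tnc, an extracellular matrix glycoprotein, had 0.24 ± 0.14, Brinp1 0.06 ± 0.08 and Cdk5rap2, a centrosome protein, 0.08 ± 0.06. Tnfsf8 was too low to be tested.

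Zfhx2os, a noncoding RNA antisense to the homeobox gene Zfhx2 on chromosome 14, was the third gene past the threshold. It had 10.6, 10.5 and 6.77 CPM in KO and 17.4, 14.3, 14.3 and 14.2 CPM in WT. The groups did not overlap, KO library 3 was the lowest and WT library 1 the highest. The log2 fold change of Zfhx2os came to -0.92 ± 0.10 (SE, adjusted p = 0.0404, edgeR's quasi-likelihood test). The call was lost without the sex covariate (adjusted p = 0.244), with GC offsets (0.0579), with the replicate number as a block (0.371, and 0.385 with length offsets as well), with all 14 libraries in one fit (1.00) and on leaving out any 1 library other than KO library 2 (0.0688 to 0.527). Of its 4453 exon bases 3255 overlap exons of Zfhx2 on the other strand, and Zfhx2 had a log2 fold change of -0.35 ± 0.08 (SE), so reads of the pair may be mixed. Another antisense RNA, Grin1os, named after its values were seen, had 4.69, 5.44 and 3.59 CPM in KO and 9.25, 8.26, 8.43 and 7.95 in WT, a log2 fold change of -1.05 ± 0.13 (SE, adjusted p = 0.0672). It lies inside Grin1 on the opposite strand, and 1307 of its 2891 exon bases overlap exons of Grin1. Grin1 had a log2 fold change of -0.27 ± 0.07 (SE), so reads of this pair may be mixed as well.

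Among genes of at least 10 CPM whose groups did not overlap, those with the largest lower log2 fold changes beside Astn2 and Zfhx2os are given here, and none of them passed the adjusted threshold. Leng8, a nuclear protein of messenger RNA processing and export, had 112, 127 and 81.1 CPM in KO and 185, 176, 181 and 153 CPM in WT, a log2 fold change of -0.87 ± 0.12 (SE, adjusted p = 0.0799). Bmp1, the protease that trims procollagens, had 99.4, 125 and 72.97 CPM in KO and 175, 161, 142 and 135 CPM in WT, a log2 fold change of -0.84 ± 0.12 (SE, adjusted p = 0.0864). P3h3, a collagen prolyl hydroxylase family member, had 16.1, 17.8 and 11.2 and 25.5, 20.4, 19.9 and 18.6 CPM (-0.71 ± 0.09, adjusted p = 0.0672). In each of these KO library 3 was the lowest of all libraries and KO library 2 the closest to WT. Slc16a11, a monocarboxylate transporter family member, had a log2 fold change of -0.90, Vwa7 -1.04, Col27a1, a fibrillar collagen, -0.64 and Cfp, which encodes the complement factor properdin, -0.76. Eln, elastin, stood at -0.89, with 11.4, 11.1, 27.1 and 10.7 CPM in WT libraries 1 to 4, where library 3 is far above the rest. Cck, a neuropeptide, had 15.4, 16.5 and 10.3 CPM in KO and 17.4, 18.7, 25.7 and 28.4 in WT (-0.72 ± 0.25). The other lower genes under this rule were Erdr1 (-0.85), Dennd6b (-0.76), Zfp692 (-0.72) and Spaca6 (-0.64).

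The genes with the largest higher log2 fold changes under the same rule are given next. Tanc2, a postsynaptic scaffold protein, had 43.5, 37.4 and 56.8 CPM in KO and 28.3, 33.1, 32.7 and 36.9 CPM in WT, with the lowest KO library just above the highest WT library. The difference was 0.63 ± 0.09 on the log2 scale (SE, adjusted p = 0.0799, edgeR's quasi-likelihood test). Dgkh, a diacylglycerol kinase, had 37.9, 28.8 and 37.6 CPM in KO and 22.1, 20.9, 20.1 and 23.4 in WT (0.70 ± 0.11, adjusted p = 0.105), a clearer gap between the groups. Pdzd2, a PDZ domain protein, had 17.2, 17.96 and 18.9 CPM in KO and 11.9, 13.7, 13.02 and 12.1 in WT (0.55 ± 0.08, adjusted p = 0.0799), the most even of these genes within each group. Others were the kinase anchoring protein Akap6 (0.52), the Parkinson disease kinase Lrrk2 (0.48), the microtubule-binding protein Nav3 (0.47), Nyap2 (0.59) and Nwd2 (0.47). The transcription factors Bach2 (0.62) and Fosl2 (0.61), Rab3b of synaptic vesicles (0.53), Homer2 (0.49) and Ankrd6 (0.57) also met the rule. Like the lower genes, none of these passed the adjusted threshold with all libraries, while 7 of them did without KO library 2. These were Dgkh (0.80 on the log2 scale, adjusted p = 0.0164), Tanc2 (0.0164), Nav3 (0.0265), Akap6 (0.0277), Nwd2 (0.0277), Pdzd2 (0.0326) and Lrrk2 (0.0393). Lower genes such as Leng8, Bmp1, P3h3 and Slc16a11 passed in that fit too. KO library 2 was the KO library nearest to the WT mean in 70.7% of genes leaning higher. Its removal therefore favours such genes and gives no separate support for them. Leaving out KO library 3 moved the counts the other way, as given above. Several of the higher genes have long transcripts, such as Dgkh (15257 bases), Akap6 (14847), Tanc2 (11855) and Homer2 (10982), while Rab3b (3327) and Ankrd6 (4683) are shorter. Genes with long transcripts leaned higher more often, as given below.

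**Figure D2:**
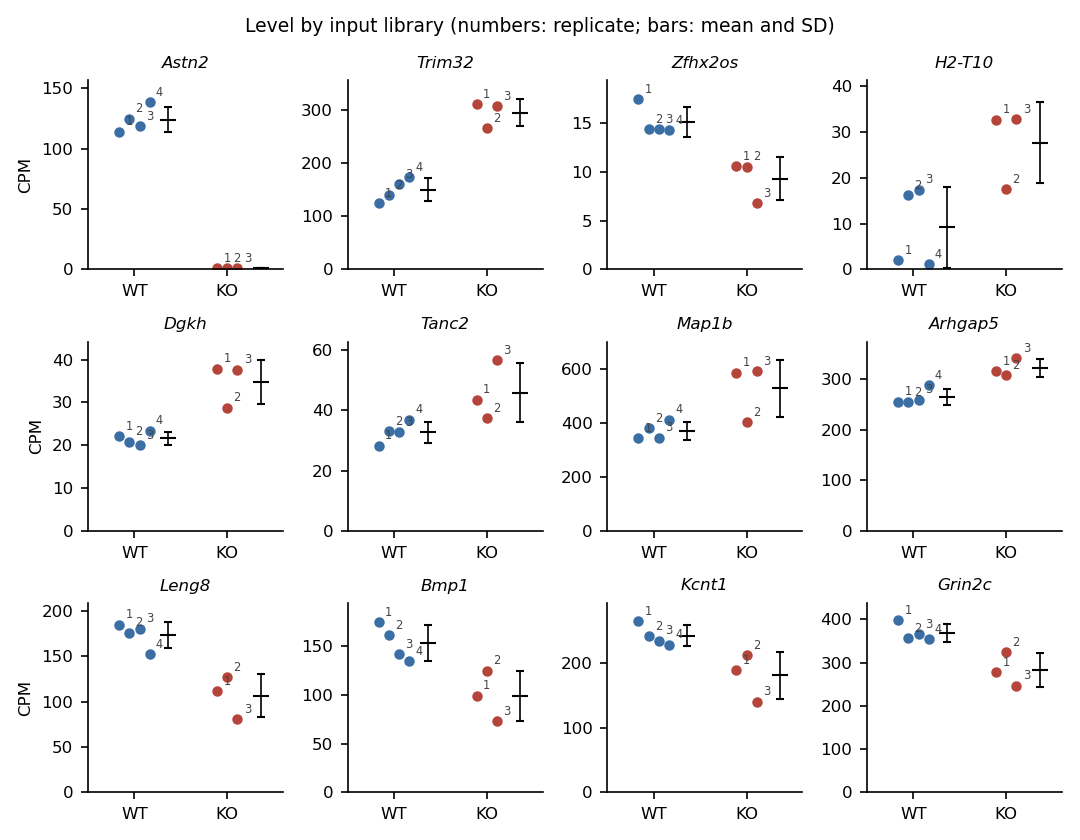
Each small panel shows 1 gene, with a numbered point for each library (3 KO, 4 WT), a bar with the mean and SD of the group, and CPM on the y axis. Astn2, Trim32 and Zfhx2os show gaps between KO and WT, and in most other genes KO library 2 lies closer to the WT points than KO library 3.

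The largest fold among the higher genes was that of H2-T10, a transcribed pseudogene of the major histocompatibility complex (MHC) at chr17:36115871-36121444, and it did not follow genotype in a simple way. It had 32.7, 17.5 and 32.8 CPM in KO libraries 1 to 3 and 1.95, 16.3, 17.4 and 1.18 CPM in WT libraries 1 to 4. The levels fell into a high pair (KO libraries 1 and 3), a middle set (KO library 2, WT libraries 2 and 3) and a low pair (WT libraries 1 and 4), so its log2 fold change of 2.19 ± 0.77 (SE, adjusted p = 0.283) averages over unlike libraries. Genes were searched for a correlation with H2-T10 of at least 0.95 in size and a range of at least 1 log2 unit. Over the 7 input libraries 11 other genes met both limits, given without a test since they were searched for. Of these, 10 lie on chromosome 17 between 33135588 and 42697569, and the remaining gene has no position in the annotation used. Of the 11 genes 4 followed H2-T10 and 7 ran opposite to it. H2-T22, an MHC class I gene named after its values were seen, had 0.910, 3.02 and 0.489 CPM in KO and 8.95, 3.73, 2.99 and 7.74 in WT, the reverse order. Hspa1b, an inducible chaperone gene in the same stretch, had 23.97, 11.3 and 22.9 CPM in KO and 6.43, 12.8, 15.5 and 6.16 in WT, in the order of H2-T10. Counts of such near-identical gene copies are uncertain.

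By position, and leaving aside chromosome Y (1 of 5 genes lower), lower genes were most frequent on chromosome 17, where 11.99% of 792 genes leaned lower and 5.68% higher. Chromosome 4, which carries Astn2, had 10.0% lower and 6.21% higher of 999 genes, and chromosome 12 had 9.98% higher and 4.81% lower of 561. Among 131 windows of 10 Mb with at least 50 genes, the share leaning lower ran from 0 to 23.8% with a median of 7.56%. The highest share was in the window of chromosome 4 from 150 to 160 Mb, where 24 of 101 genes leaned lower. The window of chromosome 17 from 30 to 40 Mb, which holds the MHC, had 19.5% of 190 genes leaning lower and 9.47% leaning higher, ranking second for lower genes.

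Genes that leaned higher in KO had longer transcripts than other genes, and those that leaned lower had a higher GC content. The median length of the longest transcript was 5479 bases in higher genes, 3122 in lower genes and 3241.5 in the rest. When genes were put in 10 equal bins by that length, 22.8% leaned higher and 3.86% lower in the bin of the longest, and 1.07% higher and 6.68% lower in the bin of the shortest. The GC content had a median of 45.5% in higher, 54.1% in lower and 49.7% in other genes. Over 5 equal bins of GC content, from lowest to highest, the share leaning higher went from 12.2% to 1.80% and the share leaning lower from 3.09% to 14.96%. Higher genes were also the more abundant, with 1.38% leaning higher in the lowest of 5 bins by CPM and 11.7% in the highest. Long noncoding RNAs went the other way: of 891, 2.02% leaned higher and 9.20% lower.

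The length pattern was present library by library and did not fully follow genotype. The median of the longest of 5 length bins minus that of the shortest, each gene taken against its mean over libraries on the log2 scale, was 0.0816, 0.0115 and 0.0631 in KO libraries 1 to 3, and -0.0717, -0.0364, -0.105 and 0.0478 in WT libraries 1 to 4. WT library 4 lay with the KO libraries, and KO library 2 lay between the groups. With per-library offsets for length, chosen after seeing the data, the 10 length bins had 4.16% to 9.61% of genes leaning higher and 3.72% to 9.61% leaning lower. The total then was 1004 genes higher and 1101 lower.

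**Figure D3:**
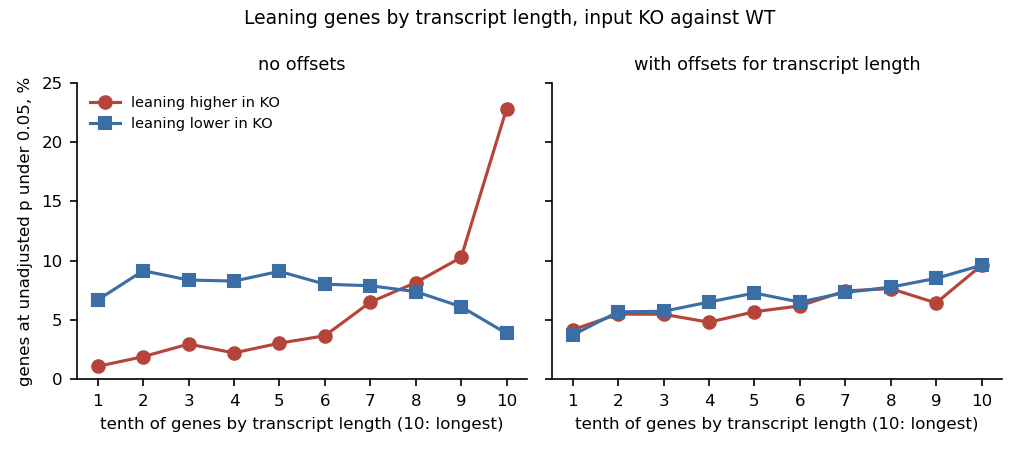
The percentage of genes that lean higher or lower in KO (y axis) is plotted over 10 bins of transcript length (x axis, 10 the longest), without offsets in the left panel and with per-library length offsets in the right panel. The share leaning higher climbs to 22.8% in the longest bin without offsets and reaches 9.61% with them.

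The functional classes were read from 32 gene lists and their counts set against the 6.24% and 7.5% of all genes that leaned higher and lower. No member other than Trim32 passed the adjusted threshold in any list, so each count below describes leaning genes only. Several lists leaned mostly higher. For the metabotropic glutamate receptor mGluR1 and its IP3 signalling, the pathway that couples parallel fibre input to calcium release in Purkinje cells, 7 of 20 members leaned higher and 1 lower, with a median log2 fold change of 0.15. Of the phospholipases that produce IP3, Plcb3 had 64.6, 58.6 and 79.9 CPM in KO and 50.5, 57.5, 55.9 and 57.3 in WT (0.39 ± 0.07, SE) with a narrow gap between the groups, Plcb1 had 0.37 and Plcb4, which Purkinje cells express, 0.24. Homer2, a scaffold that ties the receptor to IP3 receptors, had 40.6, 39.01 and 48.7 CPM in KO and 33.5, 34.3, 27.8 and 27.7 in WT, with no overlap. The G protein subunit Gnaq (0.27), the kinase Prkca (0.26) and Homer1 (0.21) also leaned higher, and the IP3 receptor Itpr3 lower (-0.78). The count of higher members was 1 without KO library 3 and 4 without the sex covariate. In the libraries of tagged Purkinje cell ribosomes Homer2 had 4.99 to 8.41 CPM, Plcb1 37.4 to 54.7 and Plcb3 175 to 287. Homer2 and Plcb1 were thus lower there than in input, and Plcb3 higher. In which cells the input differences arose was not tested.

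In the list of chaperones and unfolded protein response genes, 6 of 21 members leaned higher and none lower, with a median of 0.22. Hsph1 had 105, 91.2 and 111 CPM in KO and 75.6, 87.3, 93.1 and 101 in WT (0.30 ± 0.08, SE), and its partners Dnajb1 (0.20), Hsp90ab1 (0.23) and Hsp90aa1 (0.26) and the endoplasmic reticulum form Hsp90b1 (0.23) leaned the same way. The remaining one was Hspa1b (1.16), whose libraries follow the order of H2-T10 given above, with KO library 2 below WT libraries 2 and 3. In Hsph1 the groups overlapped, with WT library 1 the lowest. Wholly above WT lay 0 of the 21 members, where 5.68% of all genes did. No member leaned without WT library 1, 1 leaned higher without the sex covariate, 3 without WT library 2 or 3, and 10 without KO library 1 or WT library 4.

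Of regulators of chromatin and transcription with known links to autism, 20 of 20 members had a positive log2 fold change. Of these, 5 leaned higher and 8 lay wholly above WT, where 6.24% and 5.68% of all genes did. Ash1l, a histone methyltransferase, had 179, 158 and 174 CPM in KO and 134, 135, 142 and 156 in WT (0.29 ± 0.08, SE). The groups did not overlap, though KO library 2 lay just above WT library 4. Cul3, a ubiquitin ligase scaffold, had 0.22, and the methyltransferases Nsd1 0.17 and Kmt2c 0.19. The median was 0.09, and the mean of log2(CPM + 1) over the list was above WT in all KO libraries by 0.11 (pooled SD between libraries 0.05). Their transcripts had a median length of 8495 bases, in the range where higher genes were most frequent, and 2 members leaned higher once length offsets were used. The count was 9 without KO library 2, 3 without KO library 3 or WT library 1, and 2 without KO library 1 or WT library 3.

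Genes of small GTPases and of membrane traffic also leaned. Arhgap5, a GTPase-activating protein, had 315, 308 and 341 CPM in KO and 255, 254, 259 and 287 in WT (0.32 ± 0.07, SE), without overlap, while the guanine nucleotide exchange factor Arhgef1 had 35.03, 31.7 and 31.3 CPM in KO and 46.6, 45.8, 41.9 and 42.8 in WT (-0.49 ± 0.07, adjusted p = 0.0799). Arhgap32 (0.29), Arhgap31 (0.39) and Pak3 (0.42) were higher and Arhgap4 (-0.48) and Arhgef2 (-0.25) lower. Of the Rab GTPases, which direct vesicle traffic, 6 of 55 leaned higher and none lower, among them Rab11a (0.21) of recycling endosomes, Rab3c (0.32) and Rab30 (0.21). Wholly above WT lay 10 of the 55, where 5.68% of all genes did. Of 28 genes of clathrin endocytosis 4 leaned higher, namely the dynamin Dnm3 (0.35), Amph (0.31), Synj1 (0.26) and the AP2 subunit Ap2b1 (0.30), and none lower. Of these 28 genes 1 lay wholly above WT and 1 wholly below. Without KO library 3, 0 Rab members and 0 endocytosis members leaned higher. Of the endocytosis list 0 also leaned without KO library 1 or WT library 3, 1 leaned higher without WT library 1 or 2, and 10 without KO library 2, while 10 Rab members leaned higher without WT library 1.

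Of 28 tubulins, neurofilaments and microtubule-associated proteins 3 leaned higher, and all 3 are large microtubule-associated proteins. Their transcripts are long as well, at 11808 (Map1b), 11825 (Map1a) and 6258 bases (Map2). In the length bins that hold them, 22.8% (Map1b, Map1a) and 10.3% (Map2) of all genes leaned higher. The part of length in this count was not tested. Map1b, which is abundant in growing axons, had 588, 405 and 594 CPM in KO and 345, 382, 347 and 414 in WT, a log2 fold change of 0.58 ± 0.13 (SE). KO library 2 lay among the WT libraries and the other KO libraries well above them. Map2 had 0.33 and Map1a 0.35. Wholly above WT lay 0 of the 28 members. Of vesicle release genes 3 of 26 leaned higher, the priming factor Unc13c (0.27), Syn3 (0.42) and Rims1 (0.22). Without KO library 2, 6 of the cytoskeletal and 8 of the release genes leaned higher, and without KO library 3, 1 and 2 did.

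Clock genes, glycolysis and glucocorticoid-responsive genes gave smaller counts. Of 17 clock genes 4 leaned higher: the transcription factor Arntl (0.22), its partner Clock (0.18) and the repressors Per1 (0.51) and Cry1 (0.19), which are known to peak at other times of day than Arntl. Per1 had 89.6, 87.6 and 107 CPM in KO and 54.8, 64.3, 85.1 and 99.3 in WT (0.51 ± 0.15, SE), with WT library 4 above KO libraries 1 and 2. The count was 2 without KO library 3, WT library 1 or the sex covariate. Of 16 glycolysis genes all had a positive log2 fold change and 3 leaned higher, Ldha (0.24), Aldoc (0.29) and Hk1 (0.25). Wholly above WT lay 0 of these 16. The count for glycolysis was 1 without KO library 1, KO library 3, WT library 3 or the sex covariate, 6 without KO library 2 and 0 with the replicate block. Of 11 glucocorticoid-responsive genes Cdkn1a (0.39) and Sgk1 (0.21) leaned higher. Immediate early genes, which report recent neuronal activity, went both ways, with 3 of 20 higher (Nr4a3 1.23, Fosl2 0.61, Dusp6 0.28) and 3 lower (Jun -0.24, Arc -0.32, Jund -0.18). Nr4a3, a nuclear receptor, had 28.9, 41.97 and 36.6 CPM in KO and 8.83, 11.3, 29.7 and 27.6 in WT (1.23 ± 0.41, SE), with WT libraries 1 and 2 low and WT libraries 3 and 4 near KO library 1. In Fosl2 and Per1 too, WT libraries 1 and 2 lay below WT libraries 3 and 4. Of the immediate early genes 7 leaned higher and 1 lower without KO library 3, and 1 higher and 5 lower without WT library 1.

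The interferon response and antigen presentation list held the largest share of lower members, 10 of 19, with a median log2 fold change of -0.40 and 1 member higher. By the cruder measure only 1 of the 19 lay wholly below WT, where 4.93% of all genes did. Interferons induce such genes through STAT and IRF factors that bind the interferon-stimulated response element, whose core is GAAANNGAAA. Promoters of a pair of members are shown as examples because they carry the element, in capitals, in the 250 bases before the start (RefSeq, GRCm38.p6). That of Ifit1, an RNA-binding antiviral protein, lies at chr19:34640639-34640888 on the plus strand and holds 2 matches, both on the opposite strand of that printed. That of Isg15, a ubiquitin-like modifier, lies at chr4:156200819-156201068 on the minus strand and holds 3 overlapping matches.
Ifit1: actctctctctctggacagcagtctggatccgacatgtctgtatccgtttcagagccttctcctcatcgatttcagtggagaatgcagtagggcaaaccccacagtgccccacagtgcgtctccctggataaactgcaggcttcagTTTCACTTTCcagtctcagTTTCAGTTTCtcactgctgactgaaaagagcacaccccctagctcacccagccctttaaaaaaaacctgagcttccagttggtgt
Isg15: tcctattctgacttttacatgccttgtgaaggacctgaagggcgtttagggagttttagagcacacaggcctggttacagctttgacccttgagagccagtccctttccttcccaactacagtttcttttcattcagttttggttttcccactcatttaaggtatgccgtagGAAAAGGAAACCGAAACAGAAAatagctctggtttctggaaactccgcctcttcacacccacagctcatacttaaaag

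The motif was searched on both strands in the 250 bases before each RefSeq start. It was found in 4 of the 8 lower members with a promoter in that table (B2m, Ifit1, Isg15 and Stat2) and in 6 of the 14 list members with one, against 2.98% of 32851 promoters and 3.08% of 12580 tested genes. A match is a description of the letters only.

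The antiviral members of the list were low in every library. Ifit1 had 0.910, 1.06 and 0.695 CPM in KO and 1.84, 0.885, 0.902 and 1.01 in WT (-0.66 ± 0.22, SE), with WT library 1 above all others and the remaining libraries overlapping. Isg15 had 1.57, 0.702 and 0.319 CPM in KO and 1.39, 1.45, 1.13 and 1.05 in WT (-1.08 ± 0.45, SE), with KO library 1 the highest and KO library 3 the lowest of all. Irf7, the factor that amplifies the response, had 1.13, 0.723 and 0.451 CPM in KO and 1.88, 1.15, 1.31 and 0.892 in WT (-1.18 ± 0.27, SE), with WT library 1 the highest and KO library 1 inside the WT range. Usp18, which removes ISG15 from proteins, had -1.40, Oasl2 -0.81, Rtp4 -0.71, the immunoproteasome subunit Psmb8 -0.66, the MHC class I chain H2-K1 -0.40, its light chain B2m -0.29 and Stat2 -0.21, while H2-D1 leaned higher (0.41). The count of lower members was 2 without the sex covariate, 4 at a minimum mean count of 50, and 5 without KO library 1, WT library 1 or WT library 3. Psmb8, H2-K1 and H2-D1 lie on chromosome 17 within the stretch given above for genes that varied with H2-T10. They were not among those 11 genes, and the part of that stretch in the interferon counts was not tested. Of 12 microglial markers 0 leaned.

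Of splicing factors 14 of 54 leaned lower and 1 higher, and 5 lay wholly below WT, where 4.93% of all genes did. Snrnp70, a component of the U1 particle, had 224, 271 and 196 CPM in KO and 332, 308, 282 and 258 in WT (-0.49 ± 0.10, SE). Pnisr, an arginine and serine rich nuclear protein, had 137, 159 and 112 CPM in KO and 196, 182, 156 and 155 in WT (-0.50 ± 0.09, SE). In both KO library 3 was the lowest of the 7. Luc7l3 (-0.36), Rsrp1 (-0.48) and Clk4 (-0.23) also leaned lower and Hnrnpul2 higher (0.17). The mean of log2(CPM + 1) over the list was below WT in all KO libraries, by 0.07 where the pooled SD was 0.03. Without KO library 3, 5 members leaned lower, without WT library 2, 9, and without the sex covariate 8.

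Long noncoding RNAs that are retained in the nucleus leaned lower in 5 of 10 cases, with a median of -0.28. Wholly below WT lay 0 of the 10. Neat1, the scaffold of paraspeckles, had 28.3, 33.04 and 15.8 CPM in KO and 38.4, 32.1, 37.5 and 32.8 in WT (-0.74 ± 0.17, SE). Meg3, an imprinted RNA of chromosome 12, had 1677, 2190.1 and 1421 CPM in KO and 2395, 2281, 1997 and 1896 in WT (-0.44 ± 0.12, SE). The groups overlapped in both, and KO library 3 was the lowest. Snhg11 (-0.50), Mir124a-1hg (-0.58) and Mirg (-0.50) followed. The input had been cleared by a spin, and how much nuclear material each library kept was not tested beyond these RNAs. Without KO library 3, 2 members leaned lower, and 3 without the sex covariate.

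Trans-synaptic adhesion molecules leaned lower in 9 of 33 cases, none higher, and 8 lay wholly below WT, where 4.93% of all genes did. Cbln1, the granule cell protein that bridges neurexins and the Purkinje cell receptor GluD2, had 1202, 1432 and 1194 CPM in KO and 1602, 1479, 1423 and 1311 in WT (-0.26 ± 0.08, SE). KO libraries 1 and 3 lay below all WT libraries and KO library 2 among them. Its relative Cbln3 had 1318, 1456 and 1122 CPM in KO and 1511, 1461, 1383 and 1368 in WT (-0.24 ± 0.07, SE), in the same order. Nrxn2, a presynaptic neurexin, had -0.20 and the receptor phosphatase Ptprs -0.30. The latrophilin Adgrl1, the BAI receptors Adgrb1 and Adgrb2, Ptprd and Cbln4 also leaned lower, at -0.18, -0.19, -0.20, -0.17 and -0.72. Without KO library 3, 2 of the list leaned lower, with GC offsets 5, and with length offsets 13.

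Among ion channels and receptors few members leaned. Grin2c, the NMDA receptor subunit of mature granule cells, had 279, 324 and 247 CPM in KO and 398, 357, 366 and 354 in WT, without overlap, a log2 fold change of -0.48 ± 0.08 (SE). Grin1 (-0.27) and Grik5 (-0.21) leaned lower too, and Grin2b, the juvenile subunit, higher (0.59), so that 3 of 18 ionotropic glutamate receptor genes leaned lower and 1 higher. Of 77 potassium channel genes 7 leaned lower and 3 higher. Kcnt1, a sodium-activated channel, had 189, 212 and 140.0 CPM in KO and 264, 241, 234 and 228 in WT (-0.59 ± 0.09, SE), without overlap and with KO library 3 lowest. Kcnc1 (-0.26) and Kcnj9 (-0.27) were among the other lower genes. The extrasynaptic GABA-A subunit Gabrd (-0.22) was the only 1 of 15 to lean and Cacna1h (-0.47) the only 1 of 24 calcium channel genes, each lower.

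The remaining lists had fewer leaning members. Of 82 cytosolic ribosomal protein genes 0 leaned, of 83 genes of oxidative phosphorylation 1 leaned lower (Cox6a1, -0.23) and of 78 mitochondrial ribosomal genes 1 leaned lower (Mrpl54, -0.21). Zinc finger genes with Zfp symbols leaned higher in 24 and lower in 14 of 339 cases, and 51 of the 339 lay wholly above WT and 10 wholly below (5.68% and 4.93% of all genes). TRIM genes leaned higher in 3 and lower in 6 of 50 cases. Proteasome genes had 3 of 38 higher and 1 lower, postsynaptic scaffolds 1 of 18 higher (Dlg2, 0.22), and ataxia genes 2 of 22 higher (Ttbk2 0.32, Atxn10 0.20). Collagens and laminins had 5 of 48 lower, clustered protocadherins 4 of 56 lower and cholesterol synthesis genes 2 of 21 lower (among them Insig1, -0.32), with none higher in these 3 lists. The KO minus WT difference of the list mean of log2(CPM + 1) was within the pooled SD between libraries in 26 of 32 lists.

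**Figure D4:**
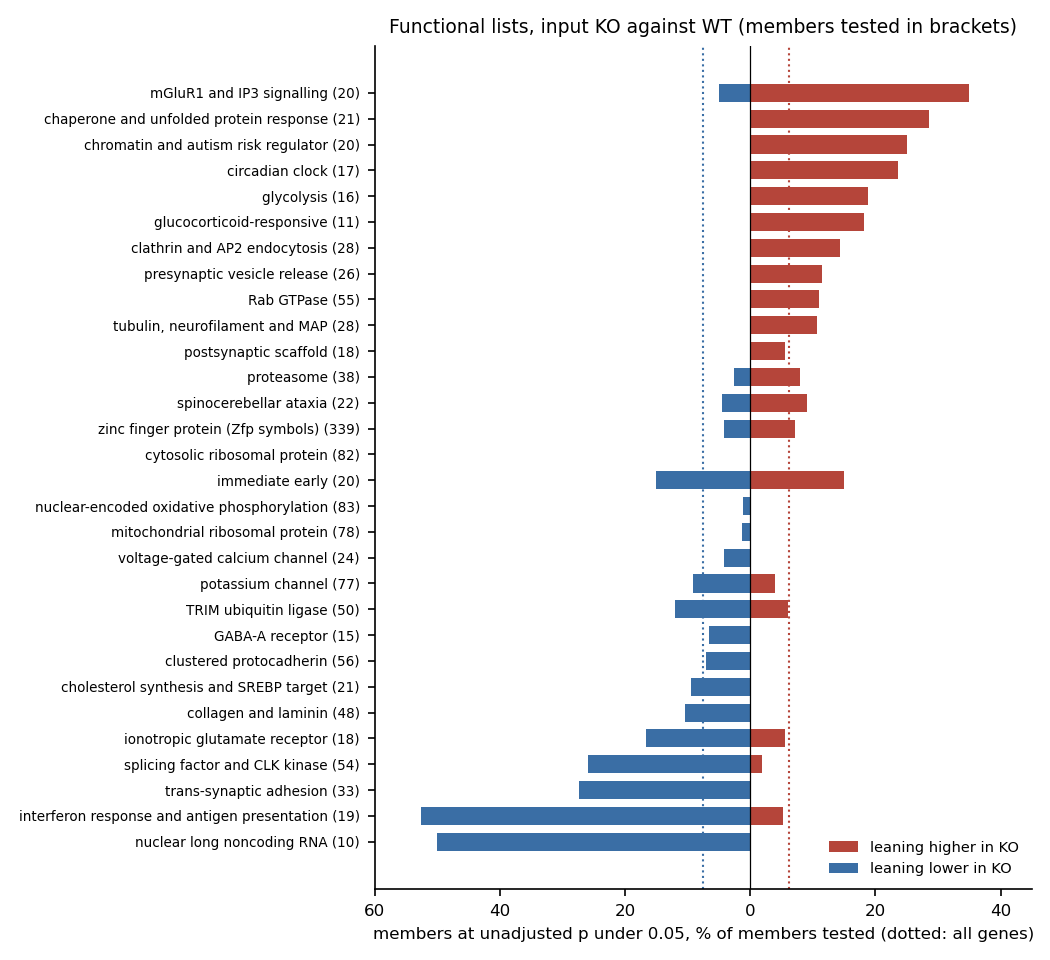
For the functional lists shown, the bars give the percentage of tested members that lean higher and lower in KO (x axis), with dotted lines at the 6.24% and 7.5% of all genes. Interferon, nuclear noncoding RNA, adhesion and splicing lists extend farthest to the lower side, and mGluR1, chaperone, chromatin and clock lists to the higher side.

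Cell composition was read from 17 marker panels, 12 of which had a mean log2(CPM + 1) that differed by no more than the pooled SD between libraries. Panels for the main neurons were close between genotypes. Granule cell markers summed to 7942 to 8186 CPM in KO and 8158 to 8339 CPM in WT, overlapping ranges; 4 of 12 leaned lower (Grin2c -0.48, Cbln3 -0.24, Car4 -0.38, Slc17a7 -0.24) and Neurod1, a transcription factor of granule neurons, leaned higher (0.14). The panel's mean was below WT in all KO libraries by 0.06 (pooled SD 0.02), while the median of its 12 log2 fold changes was 0.01. The former has no adjustment for sex and the latter has, so they are not on the same basis. Without KO library 3 or with the replicate block, 1 granule cell marker leaned lower, 2 without the sex covariate and 0 with all 14 libraries in 1 fit. Under the alternatives run no granule cell marker leaned higher, other than 1 with the DESeq2 Wald test, 2 with length offsets and 1 without KO library 2. Purkinje cell markers leaned higher in 2 of 12 cases, the calcium buffer Calb1 (0.21) and Ppp1r17 (0.16), with a median of 0.11 and overlapping panel means. The Purkinje count was 0 without KO library 3 or the sex covariate, 1 without WT library 2 or 3 or with the replicate block, 4 without WT library 4 and 5 without WT library 1. Of 10 interneuron markers Gad1 leaned higher (0.26). In the progenitor panel Dcx, a marker of migrating neurons, leaned higher (0.84 ± 0.22, SE) and Gli1, a hedgehog target, lower (-0.24), of 9 tested. Dcx had 22.9, 18.4 and 37.2 CPM in KO and 16.9, 19.1, 12.6 and 13.9 in WT, and KO library 2 lay under the highest WT library.

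Golgi and unipolar brush cell markers leaned higher in 4 of 6 cases, with a median of 0.37. Eomes, the transcription factor that marks unipolar brush cells, had 39.8, 35.1 and 68.9 CPM in KO and 22.7, 31.01, 45.4 and 63.8 in WT (0.63 ± 0.22, SE). Slc6a5, the glycine transporter of Golgi cells, had 10.2, 9.33 and 11.6 CPM in KO and 7.29, 7.75, 7.73 and 10.9 in WT (0.41 ± 0.14, SE). The groups overlapped in both and KO library 3 was the highest. Sst (0.62) and Lgi2 (0.14) leaned the same way. None of the 6 leaned without KO library 3, 1 leaned higher without the sex covariate and 2 without WT library 1. The summed level was 191 to 255 CPM in KO and 167 to 234 CPM in WT.

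Endothelial markers were the panel with the lowest median apart from red blood cells, -0.46, and all 12 had a negative log2 fold change; 5 leaned lower. Cldn5, the tight junction protein of brain capillaries, had 8.58, 7.33 and 4.94 CPM in KO and 10.8, 12.8, 12.7 and 8.15 in WT (-0.84 ± 0.23, SE), with KO library 1 inside the WT range. Ly6c1 had -0.65, the transporter Slco1a4 -0.67, the cadherin Cdh5 -0.51 and Esam -0.41. The panel's mean of log2(CPM + 1) was 2.47, 2.51 and 2.09 in KO and 2.59, 2.65, 2.89 and 2.52 in WT, so that KO libraries 1 and 2 lay just under the lowest WT library and KO library 3 well under it. None of the 12 leaned without KO library 3, 3 leaned lower without WT library 2 or 3, and 11 without WT library 1. Pericyte and smooth muscle markers had 1 of 9 lower (Tagln -0.82) and WT library 3 high.

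Glial panels leaned little. Bergmann glia and astrocyte markers had 1 of 12 higher and 1 lower (Gdf10 0.26, S100b -0.23), and 0 of 12 oligodendrocyte, 0 of 8 precursor, 0 of 12 microglia and 0 of 6 macrophage markers leaned. No marker leaned in the panels of meninges (8 tested), choroid plexus (7), ependyma (3), cerebellar nuclei (4) and red blood cells (3). All 3 red blood cell markers leaned lower without KO library 1 or without WT library 1, and 2 with the replicate block, while 3 choroid plexus markers leaned lower without KO library 2. Without the sex covariate 3 oligodendrocyte markers leaned lower. Choroid plexus and blood markers varied most between libraries of a genotype. Choroid plexus markers summed to 32.7, 1535 and 29.9 CPM in KO and 37.5, 544, 379 and 23.9 CPM in WT. Red blood cell markers summed to 4499, 660.4 and 589 CPM in KO and 2199, 12304, 7209 and 3656 CPM in WT, lower in KO libraries 2 and 3 than in any WT library. The part of blood content in the endothelial result was not tested.

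**Figure D5:**
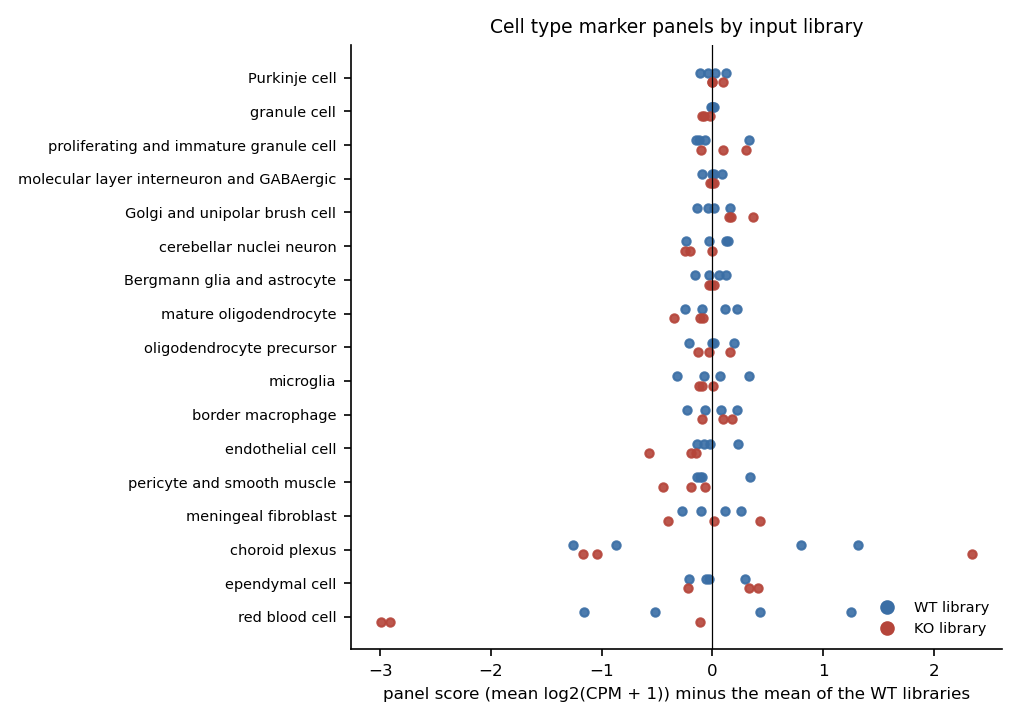
Points show each panel's mean log2(CPM + 1) in each library relative to the WT mean (x axis, log2 units), with KO and WT libraries in separate colours, for the 17 cell-type panels. Endothelial and granule cell panels have all KO points below all WT points, while choroid plexus and red blood cell panels spread over several log2 units within a genotype.

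The Purkinje ribosome (TRAP) libraries of the same study, 4 Astn2 KO and 3 WT, offer another set of values. The labels do not say whether TRAP and input libraries of a genotype share animals. Acta1 was highest in KO library 1 of both fractions (54.7 CPM in input, 7.67 in TRAP). Among WT libraries Ndufs5-ps was lowest in library 3 of both (2.76 and 0.254). H2-T10 was high in KO libraries 1 and 3 of input, but in KO libraries 1 and 4 of TRAP. Sharing was not tested, so the TRAP values cannot be read as those of separate animals. In TRAP the input-higher genes had a median log2 fold change of 0.13 (979 genes measured in both) and the input-lower genes -0.10 (1065 genes), against -0.002 for the rest. Trim32 had 0.94 ± 0.16 (SE) in TRAP, without passing the adjusted threshold there (adjusted p = 1.00), and 1.07 ± 0.10 in input. The median of the endothelial panel was -0.09 in TRAP and -0.46 in input, that of the interferon list -0.06 and -0.40, that of the mGluR1 list 0.01 and 0.15 and that of the splicing list 0.04 and -0.06. The difference between input and TRAP effects was not tested here.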

How the data were processed

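The authors deposited whole-number counts per gene, 1 column for each of 14 libraries, with NCBI gene numbers as row names and no normalization applied. The submitters' processing notes name Salmon 0.8.2 and mm10, with no role for either. The counting tool, annotation and strand setting are not given in the sources used here. Of 24100 genes, 2930 are at 0 in each library. RefSeq (GRCm38.p6) gave symbols for 24045, and coordinates and promoters are from the same tables. Transcript length and GC content are those of the longest GENCODE M21 transcript, known for 99.1% of tested genes.

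Genotype was tested in the 7 input libraries with edgeR's quasi-likelihood test (edgeR 4.0.16, R 4.3.3, two-sided), TMM factors, filterByExpr, sex as a covariate and Benjamini-Hochberg adjustment at 0.05. Standard errors were taken as the size of the log2 fold change over the root of F. CPM values use TMM factors over the 7 libraries. List and panel means of log2(CPM + 1) were compared without adjustment for sex. The test was checked on simulated counts. Pairs of replicates differed by a chi-square of 10.1 to 45.4 per degree of freedom, so none agreed within sampling noise, and each library was counted as 1 replicate. The floor of 3 counts covers counting error only, since no molecular identifiers are named in the sources used here.

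The genes named are Astn2, genes past the adjusted threshold, in each direction up to 15 leaning genes with the largest change among those with no overlap, at least 10 CPM and a symbol other than Gm or Rik, up to 4 leaning members per direction of each list, and the neighbours of Astn2. Other genes were named after their values were seen. The libraries and the 49 lists (17 cell-type panels, 32 functional lists) were chosen with earlier results of these data known. Alternatives were DESeq2 size factors, library totals, no filter, a minimum mean count of 50, DESeq2's Wald test (1.42.0), a fit with sex left out, a replicate block, all 14 libraries in 1 fit, offsets by loess (span 0.3) for length or GC content, quality weights (limma 3.58.1), a pseudocount of 0.1 for panel means, and each library left out. Some genes and lists are not reported here. The alternatives for counts of list members were chosen after seeing the data.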

Additional observations from a re-analysis of the deposited data

Results flagged for a closer look

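Within the 4 WT libraries, 18 of the 213 items checked had 1 library far from the other 3, by Dixon's ratio of its gap to the group's range on the log2(CPM + 1) scale (past the critical value for 4 samples). Chance flags about 1 in 20 groups, which is 10.65 of 213. WT library 1 was apart in 8 of the 18, high in Zfhx2os (0.966), Ifit1 (0.839) and Col20a1 (0.88), and low in Tlr4 (0.929), Atxn10 (0.902), Cry1 (0.894), Hnrnpul2 (0.849) and Ldha (0.842). WT library 4 was apart in 5, high in Map1a (0.894), Dlg2 (0.855), Slc6a5 (0.85) and Arhgap5 (0.834), and low in Itpr3 (0.851). WT library 3 was apart in 4, high in Eln (0.935) and in the mean of the pericyte and smooth muscle panel (0.895), and low in Clock (0.934) and Bach2 (0.913). WT library 2 was low in Cox6a1 (0.877). In Clock the libraries span only 7.02 to 7.08, so the ratio there reflects a tight group.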

How the results depend on the processing

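The count of genes past the adjusted threshold moved from 3 to 5 with DESeq2 size factors, 8 with quality weights, 23 with no filter and 292 with the DESeq2 Wald test, and ranged from 1 to 158 when 1 library was left out. The count leaning higher moved from 998 to 171 with all 14 libraries in 1 fit and 441 with a replicate block and length offsets, and ranged from 457 to 1645 with 1 library left out. The count leaning lower moved from 1200 to 238 with all 14 libraries, 721 with a replicate block and 717 with that block and length offsets, and ranged from 489 to 1616. With the replicate block on libraries numbered 1 to 3, 3 genes passed, Astn2, Trim32 and Gm38666, and 731 leaned higher. Deviations of same-numbered libraries had r = 0.0996, 0.145 and -0.0359, and those of other pairs ran from -0.221 to 0.255. With so few libraries these values cannot settle whether the numbers pair the samples. The cause of these differences was not tested. Of 3107 values for named genes, 3 changed sign: Pappa without KO library 3 (0.20, lowest -1.18 with 1 library left out), Tlr4 without WT library 1 (-0.18, highest 1.00) and Cdk5rap2 with length offsets (-0.033). Panel mean differences moved by less than the spread between replicates in 490 of 490 values, and list medians in 872 of 931. Levels near 1 CPM, as in Ifit1 and Isg15, rest on few counts and limit what the interferon list can show.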

Other observations

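The genes below were chosen after their values were seen, so none has a test beyond the genome-wide one. Among the 158 genes past an adjusted p of 0.05 without KO library 2 were several large neuronal proteins that were higher in KO libraries 1 and 3. Nbea, a vesicle trafficking scaffold, had 282, 223 and 324 CPM in KO and 211, 211, 197 and 217 in WT with all libraries (0.45 ± 0.11, SE), and Prex2, a Rac exchange factor, 107, 80.5 and 115 in KO and 72.4, 73.98, 74.4 and 82.6 in WT. Firre, an X-linked nuclear noncoding RNA, was among the lower ones, with 70.2, 89.2 and 51.7 CPM in KO and 109, 103, 89.8 and 86.04 in WT. The median transcript length was 7904.5 bases in the 54 higher genes and 3487 in the 104 lower genes.

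KO library 1 had higher levels of 3 skeletal muscle transcripts than the other input libraries. Acta1, skeletal muscle actin, had 54.7, 3.57 and 3.89 CPM in KO and 4.29, 3.35, 3.89 and 3.45 in WT, Tnnt3, a fast troponin, 20.9, 0.383 and 0.413 in KO and 0.263, 0.376, 0.309 and 0.243 in WT, and Mylpf, a fast myosin light chain, 12.4, 0.510 and 0.545 in KO and 0.602, 0.563, 0.412 and 0.203 in WT. Ndufs5-ps, a processed pseudogene on chromosome 16, was high in 3 of 4 WT libraries and low in every KO library, with 3.14, 2.64 and 3.10 CPM in KO and 51.9, 50.4, 2.76 and 95.7 in WT. Counts of such near-identical gene copies are uncertain. Rsad2, an interferon-induced gene outside the list used, had 3.81, 1.28 and 0.545 CPM in KO and 2.59, 10.4, 3.94 and 2.19 in WT, with WT library 2 far above the rest.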
